A study of Mus musculus with 45 samples.

Results

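Sox9, Sox5 and Sox6 were followed as 3 of the 36300 genes counted in cultured mouse forelimb buds that were exposed to bisphenol A. The 3 genes were taken by their symbols, with no threshold on their values, but with earlier results of these data known. The gene lists used further on were also chosen with those results known, so their counts beside the shares of all genes are descriptions. The limb buds came from embryos of CD1 mice, an outbred stock, on gestation day 13, and were pooled in culture bottles that held limbs of both sexes. They were cultured for 3, 24 or 48 h with dimethyl sulfoxide (the vehicle) or with bisphenol A (BPA), a plastics monomer that binds estrogen receptors, at 10 or 50 µM, which gave 9 groups of 5 libraries, 45 in all. The study's title concerns endochondral ossification, in which bone replaces a cartilage model. Nothing in the labels ties the 5 libraries of a group to separate litters or cultures, and the p-values therefore reflect only library-to-library spread, part of which may be technical.

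SOX9 is the transcription factor that commits limb mesenchyme to cartilage: without it no condensations form in the mouse limb, and it binds enhancers of Col2a1, Acan and other genes of cartilage matrix as a pair of molecules on inverted sites. SOX5 and SOX6 are near relatives of each other within the SoxD group. They have no activation domain of their own, bind next to SOX9 on many of the same enhancers, and increase what SOX9 does there. In mouse limbs Sox5 and Sox6 come on after Sox9 and depend on it, all 3 stay on in dividing chondrocytes, and Sox9 falls as the cells enlarge and turn to hypertrophy.

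On genome build mm10, Sox9 (ENSMUSG00000000567) lies on chromosome 11 from 112782224 to 112787760 on the plus strand and has 1 annotated transcript of 4135 exonic bases. Sox5 (ENSMUSG00000041540) lies on chromosome 6 from 143828425 to 144781977 on the minus strand, with 14 annotated transcripts whose merged exons span 14376 bases. Sox6 (ENSMUSG00000051910) lies on chromosome 7 from 115470872 to 116038796 on the minus strand, with 16 transcripts and 14832 merged exonic bases. Levels of different genes can be set side by side only per length, here as the deposited FPKM (reads per kilobase of these exons, scaled to library size). In vehicle at 3 h Sox9 stood at 109 ± 11.4 FPKM (mean ± SD, n = 5), Sox5 at 6.21 ± 0.625 and Sox6 at 5.16 ± 0.568. At 48 h in vehicle the levels were 91.8 ± 7.70 FPKM for Sox9, 7.43 ± 0.805 for Sox5 and 7.44 ± 0.728 for Sox6. Sox9 was thus the most abundant per base of exon in every group. Division by the merged length of 14 or 16 transcripts lowers the FPKM of Sox5 and Sox6 against that of Sox9 by an amount that gene counts do not show.

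Sox5 and Sox6 were the pair whose levels ran most closely together, as described further on, and the sequence before a start site of each is shown for that reason. RefSeq (GRCm38.p6) gives a window from 250 bases before to 50 bases after the start for 1 transcript start of Sox5, at chr6:143947057-143947356, and for 6 starts of Sox6, of which the one nearest the gene's deposited 5′ end is at chr7:116038695-116038994. Both are printed on the minus strand, 5′ to 3′. Capitals mark ACAAT, the core of the site that SOX proteins bind, and ACAAAG, the form of it shared with LEF and TCF proteins, each searched on both strands.
Sox5: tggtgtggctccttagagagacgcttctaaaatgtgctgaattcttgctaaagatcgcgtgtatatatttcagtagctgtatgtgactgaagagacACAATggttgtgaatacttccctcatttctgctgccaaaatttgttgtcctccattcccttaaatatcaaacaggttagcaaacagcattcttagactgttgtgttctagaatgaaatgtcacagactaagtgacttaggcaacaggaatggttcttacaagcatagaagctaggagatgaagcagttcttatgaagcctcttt
Sox6: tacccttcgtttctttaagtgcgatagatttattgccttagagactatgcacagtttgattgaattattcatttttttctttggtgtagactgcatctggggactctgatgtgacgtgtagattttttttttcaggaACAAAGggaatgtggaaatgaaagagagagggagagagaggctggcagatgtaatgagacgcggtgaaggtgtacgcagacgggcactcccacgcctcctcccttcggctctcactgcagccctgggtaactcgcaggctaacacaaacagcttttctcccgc
The Sox5 window held 1 match of ACAAT and none of ACAAAG, and the Sox6 window 1 match of ACAAAG and none of ACAAT. Of 32851 windows of the same length, 31% held ACAAT and 18.7% held ACAAAG on either strand. The Sox5 start lies 834871 bases inside the gene from its deposited 5′ end and the Sox6 start 52 bases from it, so the windows belong to different kinds of start. The G and C content was 39.7% in the Sox5 window and 47.0% in the Sox6 window.

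Each library held between 17.54 M and 27.12 M counts in genes, and all 3 genes passed the filter on low counts in every comparison. Levels are given below as CPM, counts scaled to library size by TMM over the 45 libraries. A gene is said to have risen or fallen, or to have been called, where edgeR's quasi-likelihood test gave an adjusted p (Benjamini-Hochberg over all genes tested) below 0.05. Fold changes are log2 values ± the standard error of the test. In simulations of 50 µM against vehicle, the same steps called 10% of 50 genes changed 1.2-fold at 24 h and 18% at 48 h. They called 64% and 76% of those changed 1.5-fold, so changes near 1.2-fold were mostly missed in the simulations. Fewer genes were changed there than were called in the data, and they were drawn from all genes with a mean count of at least 50. The shares therefore do not give the power for Sox9, Sox5 or Sox6.

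Sox6 rose in vehicle over the first day, while Sox9 drifted down over 2 days and Sox5 rose slightly. For Sox6 the 5 libraries at 3 h read 85.4, 66.3, 75.5, 85.2 and 74.3 CPM, and those at 24 h read 86.9, 138, 99.5, 137 and 124 CPM. Every 24 h library lay above every 3 h library, as was the case for 21.7% of all genes tested. The rise was 0.61 ± 0.12 (1.52-fold, adjusted p = 0.00107). At 48 h Sox6 read 109, 107, 102, 130 and 106 CPM, again above all 3 h libraries (33.9% of genes did not overlap between these groups), 0.52 ± 0.09 higher than at 3 h (1.44-fold, adjusted p = 0.0001). From 24 to 48 h Sox6 differed by -0.08 ± 0.11 (adjusted p = 0.747), the groups overlapping as for all but 8.29% of genes, with a 95% interval of -0.33 to 0.16. The call share over all genes was 30.0% for 24 against 3 h, 8.45% for 48 against 24 h (5.44% higher, 3.02% lower) and 46.7% for 48 against 3 h, so a call over time was common among all genes. In bulk libraries a changed share of expressing cells and a changed amount of RNA per cell cannot be told apart.

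Sox5 read 102, 81.3, 81.9, 92.3 and 93.3 CPM in vehicle at 3 h, then 87.8, 123, 94.4, 112 and 105 at 24 h and 110, 96.4, 96.0, 124 and 110 at 48 h. The groups overlapped at each step. Sox5 was 0.22 ± 0.09 higher at 24 than at 3 h (adjusted p = 0.0793, not called) and rose by 0.26 ± 0.08 from 3 to 48 h (1.19-fold, adjusted p = 0.021). Without vehicle library 4 of 48 h, the highest of its group, the rise from 3 to 48 h was 0.20 with an adjusted p of 0.0662. The 24 h difference was called without vehicle library 1 of 24 h or of 3 h (up to 0.27, adjusted p down to 0.0265). From 24 to 48 h the difference was 0.03 ± 0.09 (adjusted p = 0.899).

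Sox9 read 445, 423, 407, 525 and 470 CPM in vehicle at 3 h, 368, 447, 376, 444 and 410 at 24 h, and 384, 360, 349, 432 and 378 at 48 h. Of the 5 libraries at 48 h, 4 lay below the lowest at 3 h, and the groups overlapped only through library 4 of 48 h. Sox9 fell by 0.25 ± 0.08 on the log2 scale from 3 to 48 h (1.19-fold lower, adjusted p = 0.0171). Over shorter spans it was not called, with -0.14 ± 0.08 from 3 to 24 h (adjusted p = 0.192) and -0.11 ± 0.07 from 24 to 48 h (adjusted p = 0.425). In the authors' deposited table for 48 against 3 h the log2 fold changes were -0.243 for Sox9 (adjusted p = 0.0102), 0.26 for Sox5 (0.0145) and 0.529 for Sox6 (4.68e-08).

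**Figure D1:**
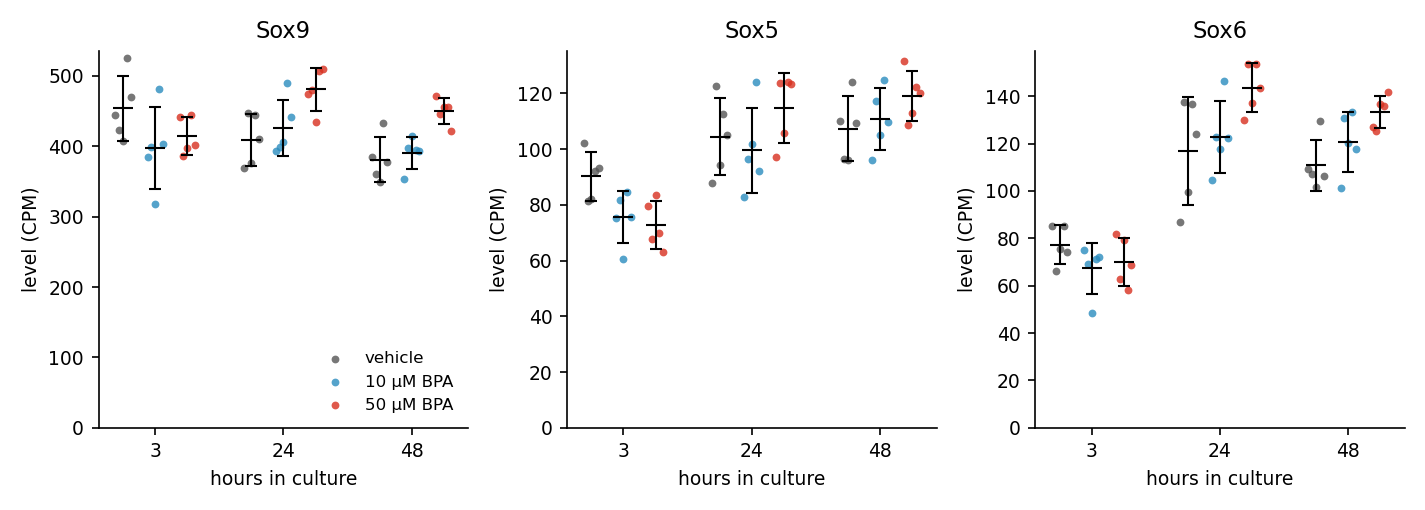
Levels of Sox9, Sox5 and Sox6 in CPM against hours in culture, with 1 point per library, a short bar for the mean of 5 libraries and error bars of 1 SD, in vehicle (grey), 10 µM BPA (blue) and 50 µM BPA (red). In vehicle Sox6 lies between 66.3 and 85.4 CPM at 3 h and between 102 and 130 at 48 h, while Sox9 goes from 407 to 525 CPM down to 349 to 432.

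Since Sox9 moved down while its partners moved up, the ratio between them was taken within each library, where library size cancels. Reads of Sox9 per read of Sox6 had a geometric mean of 5.87 in vehicle at 3 h, 3.54 at 24 h and 3.44 at 48 h. Both later groups lay wholly below the 3 h group, with log2 differences of -0.73 ± 0.10 and -0.77 ± 0.06. Sox9 per Sox5 went from 5.03 to 3.93 and 3.56, with -0.36 ± 0.07 at 24 h and -0.50 ± 0.07 at 48 h against 3 h, and again no overlap. Sox5 per Sox6 went from 1.17 to 0.902 and 0.967, with -0.37 ± 0.07 and -0.27 ± 0.06 against 3 h. The ratios are of read counts, not per length, so their changes carry meaning and their size does not compare the genes. Each of these 6 differences had p = 0.00794 in a two-sided exact permutation test, the smallest p the design allows, and 0.0357 after adjustment over the 27 ratio tests made. They rest on the same libraries as the changes in level above. How often ratios of other gene pairs separate these groups was not examined. Of single genes, 21.7% did not overlap at 24 against 3 h and 33.9% at 48 against 3 h. From 24 to 48 h no ratio passed: Sox9 per Sox5 differed by -0.14 ± 0.04 (exact permutation p = 0.0159, adjusted 0.0612; called without 24 h library 2). Leaving out any 1 of the 24 h vehicle libraries raised the adjusted p of Sox9 per Sox5 at 24 against 3 h to 0.0612. Leaving out 3 h vehicle library 1, 2 or 5 did so for Sox5 per Sox6 at 24 against 3 h. Over all libraries left out in turn, these 2 differences ran from -0.41 to -0.31 and from -0.41 to -0.34. Exact p-values from so few libraries move in coarse steps.

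**Figure D2:**
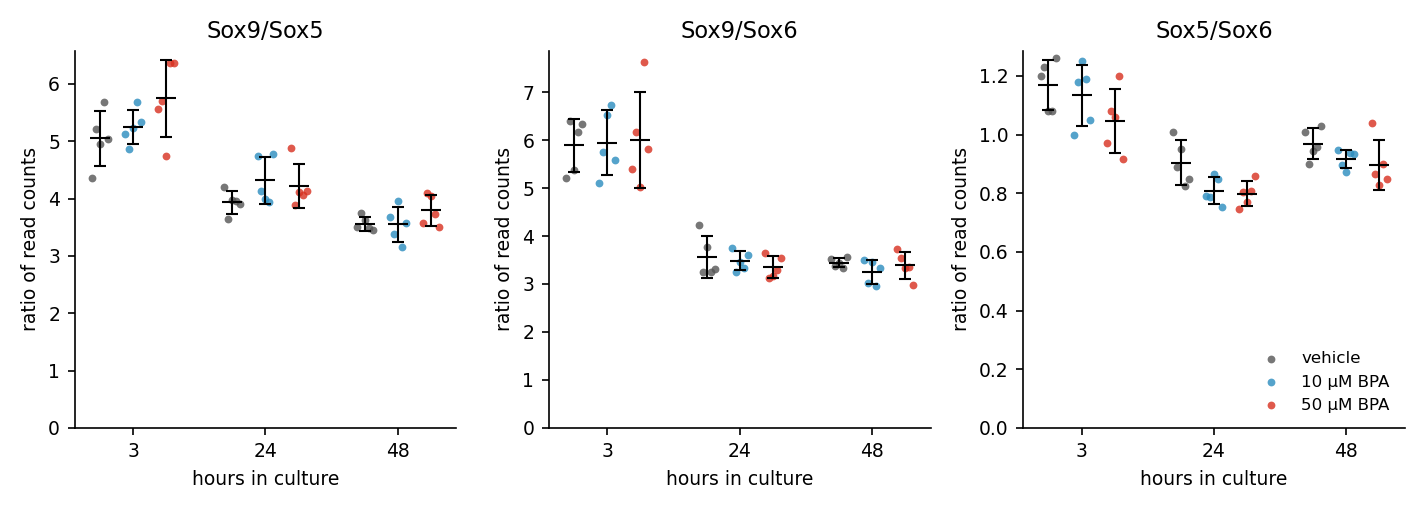
Ratios of read counts within each library against hours in culture, with 1 point per library, a short bar for the mean and error bars of 1 SD (n = 5), coloured by dose. All 3 ratios are lower in the vehicle libraries of 24 and 48 h than in those of 3 h, and the doses overlap at each time.

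With 50 µM BPA at 48 h, Sox9 and Sox6 stood higher than in vehicle. Sox9 read 472, 446, 456, 456 and 422 CPM against 384, 360, 349, 432 and 378 in vehicle, and only vehicle library 4 reached into the treated range. The difference was 0.23 ± 0.06 (1.18-fold, adjusted p = 0.024). Sox6 read 127, 125, 137, 136 and 142 CPM against 109, 107, 102, 130 and 106 in vehicle, where again only vehicle library 4 overlapped the treated libraries. The difference was 0.26 ± 0.07 (1.2-fold, adjusted p = 0.021). Of all genes tested, 9.18% were called in this comparison and 9.13% did not overlap. Sox5 read 132, 109, 113, 122 and 120 CPM against a vehicle range of 96.0 to 124, a difference of 0.14 ± 0.07 that was not called (adjusted p = 0.267, 95% interval -0.01 to 0.30). In the authors' deposited table the log2 fold changes at 48 h were 0.24 for Sox9 (adjusted p = 0.00192), 0.265 for Sox6 (0.00335) and 0.149 for Sox5 (0.249).

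In the main edgeR test, which used no replicate block, the 48 h calls were near the threshold. Sox9 lost its call without 50 µM library 1, 3 or 4 or without vehicle library 2 or 3, and Sox6 without 50 µM library 3, 4 or 5 or without vehicle library 3. The fold changes then stayed between 0.20 and 0.28 for Sox9 and between 0.23 and 0.32 for Sox6, with adjusted p-values of at most 0.0589 and 0.0592. Sox6 was also not called where all 45 libraries were fitted together (0.27 ± 0.11, adjusted p = 0.15). DESeq2 called both genes, with an adjusted p of 0.00175 for Sox9 and 0.00299 for Sox6, among 2092 genes called. In this comparison same-numbered libraries deviated together, and with the replicate number as a block Sox9 was at 0.24 ± 0.05 (adjusted p = 0.00269), Sox6 at 0.26 ± 0.05 (0.00314) and Sox5 at 0.15 ± 0.05 (0.0525), while the genes called went from 1536 to 2598.

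At 24 h with 50 µM the trio lay above vehicle by similar amounts, but no member was called, where 3.47% of all genes were. Sox9 read 474, 480, 434, 506 and 509 CPM against 368, 447, 376, 444 and 410, and 1 treated library, the third, lay inside the vehicle range. The difference was 0.23 ± 0.07 (adjusted p = 0.0876). Sox6 read 130, 154, 137, 154 and 144 CPM against 86.9, 138, 99.5, 137 and 124, with 3 treated libraries above all of vehicle, at 0.29 ± 0.11 (adjusted p = 0.192). Sox5 was at 0.13 ± 0.09 (adjusted p = 0.551). The calls here turned on the model. With the replicate number as a block, Sox9 (0.23 ± 0.05, adjusted p = 0.0157) and Sox6 (0.31 ± 0.07, 0.0102) were called, while the genes called went from 585 to 1180. Sox9 was also called by DESeq2 (0.23 ± 0.07, 0.0238), and without 50 µM library 3 (0.27, 0.0485), and has an adjusted p of 0.0274 in the authors' deposited table. DESeq2 called 1008 genes in all at 24 h.

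At 3 h with 50 µM all 3 genes lay below vehicle. Sox5 read 79.4, 67.7, 83.7, 69.9 and 63.1 CPM against 102, 81.3, 81.9, 92.3 and 93.3, with only the third treated library inside the vehicle range. Its difference of -0.32 ± 0.09 had an adjusted p of 0.103 and was not called by edgeR, where 1.41% of all genes were and 4.07% did not overlap. DESeq2 called it (-0.32 ± 0.10, adjusted p = 0.0286), as did the authors' deposited table (-0.32, 0.0312), and edgeR did so without 50 µM library 3 (-0.38, 0.04). DESeq2 called 594 genes in all at 3 h, where edgeR called 239. Sox6 was at -0.15 ± 0.10 (adjusted p = 0.605) and Sox9 at -0.14 ± 0.08 (adjusted p = 0.468).

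**Figure D3:**
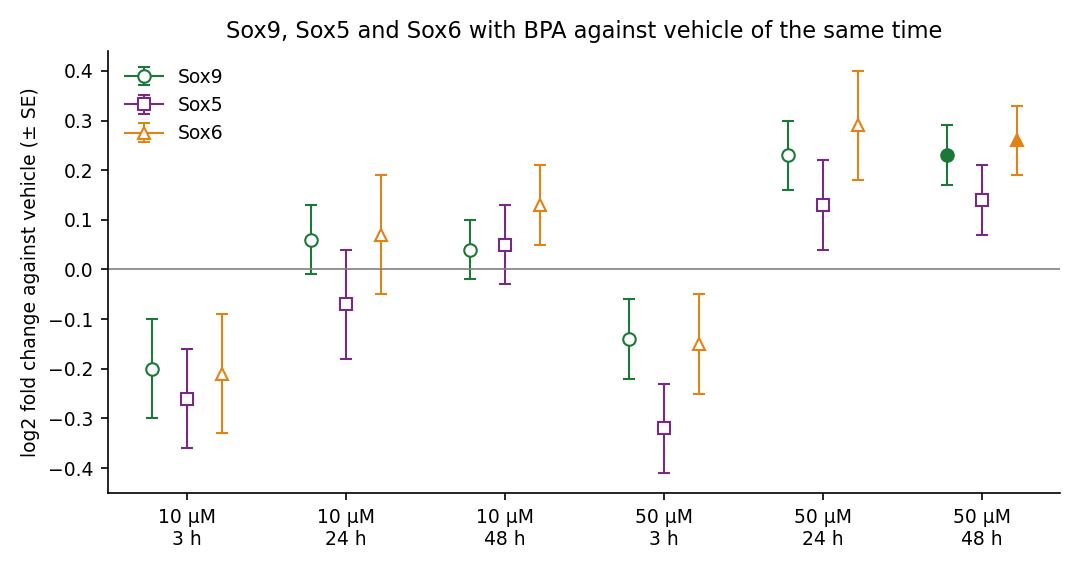
Log2 fold change of Sox9 (circles), Sox5 (squares) and Sox6 (triangles) against vehicle of the same time, with error bars of 1 SE, for 10 and 50 µM BPA at 3, 24 and 48 h (5 against 5 libraries each). Filled symbols passed an adjusted p of 0.05 and are Sox9 (0.23) and Sox6 (0.26) at 50 µM and 48 h, and values at 3 h lie below 0 for both doses.

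At 50 µM the estimates at 3 h and those of the later times had opposite signs, and the difference in effect was tested as an interaction over all 45 libraries. The effect of 50 µM was higher at 48 than at 3 h by 0.46 ± 0.14 for Sox5 (adjusted p = 0.0847), 0.41 ± 0.15 for Sox6 (0.216) and 0.37 ± 0.11 for Sox9 (0.0645). None passed, where 1.96% of genes did. Between 24 and 3 h the differences were 0.45 ± 0.14 (0.163), 0.44 ± 0.15 (0.229) and 0.36 ± 0.11 (0.127) in the same order, where 0.592% of genes passed, and with the replicate block Sox9 passed there (0.36 ± 0.09, adjusted p = 0.0313). Sox5 and Sox9 did pass for 48 against 3 h with the replicate block (0.46, adjusted p = 0.0484, and 0.38, 0.0095), with DESeq2 (0.46, 0.047, and 0.37, 0.0335) and where only the 4 groups compared were fitted (0.46, 0.0364, and 0.37, 0.0369). For 48 against 3 h, Sox5 (up to 0.52) also passed without 50 µM library 3 of 3 h or vehicle library 4 of 48 h, and Sox9 (up to 0.43) without vehicle library 3 of 3 h or 4 of 48 h. Between 48 and 24 h the effects differed by 0.02 ± 0.14, -0.03 ± 0.15 and 0.01 ± 0.11, and edgeR called 0% of genes, with 641 at an unadjusted p below 0.05 and 4 genes called by DESeq2. The comparisons with vehicle at 3, 24 and 48 h share no libraries, while the 2 doses share their vehicle libraries at each time.

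At 10 µM no member was called at any time. At 3 h Sox9 read 385, 398, 318, 481.4 and 403 CPM and differed from vehicle by -0.20 ± 0.10 (adjusted p = 0.7, 95% interval -0.42 to 0.02). Sox5 was at -0.26 ± 0.10 with an unadjusted p of 0.0173 (adjusted 0.7) and Sox6 at -0.21 ± 0.12 (adjusted 0.7). At 24 h the differences were -0.07 ± 0.11 for Sox5, 0.07 ± 0.12 for Sox6 and 0.06 ± 0.07 for Sox9, and at 48 h they were 0.05 ± 0.08, 0.13 ± 0.08 and 0.04 ± 0.06. The 95% interval of Sox9 at 48 h ran over -0.10 to 0.18, and that of Sox6 over -0.05 to 0.30. Over all genes edgeR called 0% at 3 h and at 24 h (974 and 786 genes at an unadjusted p below 0.05, and 17 called by DESeq2 each time) and 0.00591% at 48 h. DESeq2 called no member at this dose, with adjusted p-values of at least 0.664.

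Set directly against each other, the doses gave the smallest p for Sox9 at 48 h (unadjusted p = 0.0112). With 10 µM it read 354, 397, 414, 394 and 392 CPM, all below the 5 libraries with 50 µM, as 4.41% of genes did not overlap there. The difference of 0.21 ± 0.08 was not called in the fit of 45 libraries (adjusted p = 0.184, where 3.14% of genes were called, 1.02% higher and 2.11% lower) and was called where only those 2 groups were fitted (0.20 ± 0.05, adjusted p = 0.0495). At 24 h 50 µM lay above 10 µM by 0.20 ± 0.10 for Sox5, 0.22 ± 0.11 for Sox6 and 0.18 ± 0.08 for Sox9, with adjusted p-values from 0.427 to 0.512 (0.789% of genes called). At 3 h the doses differed by -0.05 ± 0.10, 0.06 ± 0.11 and 0.06 ± 0.08 (0.618% of genes called, 0.353% higher).

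No ratio within the trio passed the adjusted test with BPA. The nearest was Sox5 per Sox6 at 50 µM and 24 h, at 0.797 against 0.902 in vehicle (-0.18 ± 0.06, exact permutation p = 0.0238, adjusted 0.0804). It was below vehicle in all 6 comparisons of BPA with vehicle, by 0.05 to 0.18 on the log2 scale, and the doses share their vehicle libraries in these. Sox9 per Sox6 differed from vehicle by between -0.09 and 0.02 in the 6 comparisons.

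Ordered by mean level, the 9 groups were arranged differently for each gene. For Sox9 the order ran from 480.6 ± 30.2 CPM with 50 µM at 24 h, through vehicle at 3 h (454 ± 46.3) and 50 µM at 48 h (450 ± 18.5), then 10 µM at 24 h (426 ± 40.2), 50 µM at 3 h (414 ± 26.7), vehicle at 24 h (409 ± 36.9), 10 µM at 3 h (397 ± 58.2) and 10 µM at 48 h (390 ± 22.3), to 381 ± 32.2 in vehicle at 48 h. No step between neighbours in that order exceeded the larger SD of the 2 groups. For Sox6 the order fell into the times. The 6 groups of 24 and 48 h, from 144 ± 10.4 CPM (50 µM, 24 h) to 111 ± 10.9 (vehicle, 48 h), stood above the 3 groups of 3 h, from 77.3 ± 8.09 (vehicle) to 67.3 ± 10.7 (10 µM). Only the step of 33.4 CPM between those sets exceeded the SD. For Sox5 the top was 50 µM at 48 h (119 ± 8.92) and the bottom 50 µM at 3 h (72.8 ± 8.52), and the only step above the SD was that of 14.6 CPM from vehicle at 3 h (90.2 ± 8.79) to 10 µM at 3 h (75.6 ± 9.23).

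Within groups, libraries high in one member were high in the others. Over the 45 libraries, log2 CPM of Sox5 and Sox6 had a Pearson r of 0.91, and after the group mean was taken off each library the deviations had an r of 0.82. For Sox5 and Sox9 these values were 0.43 and 0.71, and for Sox6 and Sox9 0.38 and 0.67. Sox9 thus ran with the other two within groups more than across them. These are descriptions over libraries that share culture, extraction and scaling, with no test. Library 4 was the highest of its group in 5 of 9 groups for Sox5 and for Sox9 and in 3 of 9 for Sox6. Of 12653 protein-coding genes with a mean count of at least 50, Sox6 was the nearest to Sox5 by deviations. Over all libraries it was the second nearest, after Flrt2 (0.92), which encodes a membrane protein of cell adhesion. The reverse did not hold, as Sox5 ranked 28 for Sox6 by deviations and 18 over all libraries. Sox9 ranked 54 for Sox5 and 941 for Sox6 by deviations, and 3181 and 3708 over all libraries. For Sox9, Sox5 ranked 19 and Sox6 64 by deviations. Many genes outside the trio thus followed Sox6 within groups more closely than Sox9 did.

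**Figure D4:**
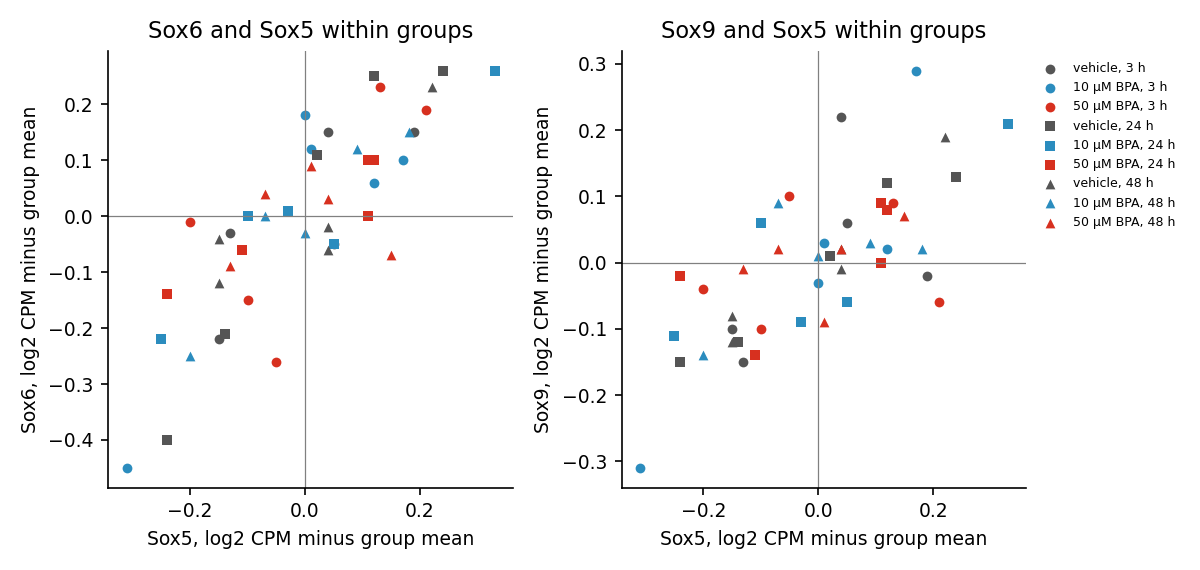
Deviation of each of the 45 libraries from its group mean in log2 CPM, Sox6 against Sox5 (left) and Sox9 against Sox5 (right), with colour for the dose and symbol shape for the time. Both plots slope upward, with r of 0.82 and 0.71, and library 3 of 10 µM at 3 h is the lowest point of each.

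The genes nearest to each member differed. For Sox6 over all libraries they were Creb3l2 (0.96), a transcription factor of the secretory pathway that drives collagen export in mouse chondrocytes, Kcnd2 (0.94), a potassium channel, and Papss2, Dyrk2 and Kank1 (0.93 each), of which Papss2 makes the sulfate donor for cartilage proteoglycans. For Sox5 they were Flrt2, Sox6, Bmpr1b (0.90), a BMP receptor needed for limb cartilage, Atg2b (0.90) and Lgr4 (0.89), a receptor for R-spondins. Sox9 had no neighbour as close: Hs3st3b1 (0.80), a heparan sulfate sulfotransferase, led before Fmnl2 and Zfp521 (0.72 each), Kdm5b and Tmem200c (0.71 each). By deviations within groups the nearest were Unc5c (0.88), Gpc6 (0.87), Pabpc4l (0.86), Adgrl3 and Robo1 (0.85 each) for Sox6. For Sox5 they were Sox6, Aff3 and Unc5c (0.80 each), Ubxn7 (0.79) and Kdm5b (0.77), and for Sox9 Ccng2 (0.80), Mecom (0.76), Kank1, Gli2 and Shisa2 (0.75 each).

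Epidermal transcripts moved against all 3 members within groups. The summed level of 9 epidermal markers had deviations that correlated with those of Sox5, Sox6 and Sox9 at -0.51, -0.56 and -0.56 (n = 45 libraries, a description), and in vehicle at 24 h the sum ran from 80.9 to 1037 CPM. With these markers as a covariate, Sox9 and Sox6 were called at 24 h with 50 µM (0.26 ± 0.06, adjusted p = 0.0183, and 0.37 ± 0.08, 0.0131). In that fit 789 of 16841 genes were called, against 585 without the covariate. With 50 µM, muscle, macrophage and tendon markers were lower, while Sox9 and Sox6 were higher at 48 h. The sum of 12 muscle markers was 3688 to 5685 CPM in vehicle at 48 h and 1670 to 2683 with 50 µM, with 10 of the 12 lower (5.30% of all genes were lower) and a median of -1.13. Of 7 macrophage markers 5 were lower at 48 h, with sums of 185 to 258 CPM in vehicle and 88.1 to 172 with 50 µM, and of 8 tendon markers 3 were lower (1671 to 2211 and 1289 to 1963 CPM). At 24 h 8 muscle, 3 macrophage and 4 tendon markers were lower (2.10% of all genes). The part of these cell types in the rise of Sox9 and Sox6 at 48 h was not tested. Of 8 markers of Schwann cells and neural crest 2 were lower at 48 h, with sums of 172 to 200 CPM in vehicle and 149 to 181 with 50 µM.

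Cartilage genes that the trio is known to act on rose in vehicle over both days, the second of which left Sox6 at -0.08 ± 0.11. Of a list of 20 such genes, 20 rose in vehicle from 3 to 24 h, where 16.3% of all genes did, with a median of 1.57, and 16 rose from 24 to 48 h (5.44% of all genes). Markers of other cell types moved over the first day as well: 12 of 12 muscle markers rose (summed level 1220 to 1384 CPM at 3 h and 2537 to 4531 at 24 h), as did 6 of 8 tendon markers (476 to 603 and 919 to 1073) and 5 of 7 macrophage markers (58.4 to 75 and 129 to 162). Of 11 erythroid markers 7 fell (1573 to 2458 and 1164 to 1511), as did 6 of 7 endothelial and 1 of 8 tendon markers, where 13.8% of all genes did. Their part in the rise of the cartilage genes and of Sox6 was not tested. Col2a1, the main collagen of cartilage, went from 2482 ± 277 CPM at 3 h to 9698 ± 1317 at 48 h (3.93-fold, adjusted p = 2.66e-10), and Matn1, a matrilin of cartilage matrix, rose 9.03-fold (adjusted p = 1.82e-10). Over the 45 libraries Col2a1 correlated with Sox6 at 0.83 and with Sox9 at -0.03, and within groups at 0.14 and 0.00. With 50 µM the counts were as follows. At 3 h none of 19 tested was called (2 at an unadjusted p below 0.05, 0 with DESeq2). At 24 h 1 fell, Matn3 (-0.59 ± 0.13, adjusted p = 0.0202), where 3.47% of all genes were called, and the median of the 20 was 0.04 (DESeq2 called 1 higher and 3 lower). At 48 h Papss2 rose (0.29 ± 0.06, adjusted p = 0.00797) and Ucma, a secreted protein of the upper cartilage zones, fell 5.35-fold (-2.42 ± 0.36, adjusted p = 0.000557), with a median of 0.13 against 0.00 over all genes. These 2 of 20 are near the 9.18% of all genes called, and DESeq2 called 4 higher and 1 lower. Col2a1 (0.28 ± 0.09, adjusted p = 0.0826) and Acan (0.29 ± 0.10, 0.0853) were not called at 48 h against vehicle. Matn3 lost its call without 50 µM library 4 or 5 or vehicle library 4 (adjusted p up to 0.0702), and all 45 libraries in 1 fit gave 0.105.

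Among the 16 other Sox genes in the files, 13 passed the filter in vehicle at 48 against 3 h, and 2 rose and 7 fell, where 23.9% and 22.9% of all genes did. Sox8, the closest relative of Sox9 in the SoxE group together with Sox10, went up 1.62-fold (adjusted p = 3.41e-06), while Sox10 fell by 1.62 ± 0.14 on the log2 scale (adjusted p = 9.14e-08). Sox11, a SoxC gene of mesenchymal progenitors, fell 2.94-fold (adjusted p = 3.9e-10), and Sox13, the remaining SoxD gene, was at -0.26 ± 0.10 (adjusted p = 0.0428). With 50 µM, Sox11 alone of this list was called, at 24 h (0.24 ± 0.05, adjusted p = 0.021) and at 48 h (0.24 ± 0.07, 0.0378), where 1.37% and 3.88% of genes were higher. It read 359 to 395 CPM in vehicle and 426 to 472 with 50 µM at 24 h. Its calls were lost in the fit of 45 libraries (adjusted p = 0.0831 and 0.0654) and without single libraries of both groups (at 24 h 50 µM library 4 or 5 or vehicle library 3 or 4, adjusted p up to 0.0652, and at 48 h 50 µM library 1, 3, 4 or 5 or vehicle library 1, 2 or 5, up to 0.0929). The effect of 50 µM on Sox8 was lower at 24 than at 3 h by 0.57 ± 0.12 (log2 difference -0.57, adjusted p = 0.00997, where 0.493% of genes were lower).

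Of 12 proteins known to act with SOX9, 1 gene was called with 50 µM at 24 h and 1 at 48 h, where 3.47% and 9.18% of all genes were. Barx2, a homeobox factor that binds the Col2a1 enhancer, was at -0.52 ± 0.11 at 24 h (adjusted p = 0.0172), and Arid5a, which works with SOX9 on chondrocyte genes, was at -0.35 ± 0.10 at 48 h (adjusted p = 0.0436). Leaving out 50 µM library 2 or 4 ended the call of Barx2 (adjusted p up to 0.0617), and any library but 50 µM library 4 and vehicle library 3 that of Arid5a (up to 0.105), which all 45 libraries in 1 fit also ended (0.0976). In vehicle Arid5a rose 1.75-fold from 3 to 48 h (adjusted p = 4.82e-05) and Zfp219, a zinc finger partner of SOX9, was at -0.56 ± 0.09 (adjusted p = 7.58e-05), among 2 that rose and 4 that fell, where 23.9% and 22.9% of all genes did.

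Signals and factors that lie above or against Sox9 included receptors of FGF and BMP that rose with BPA. Of 19 tested at 50 µM, 4 rose at 24 h and the same number at 48 h, where 1.37% and 3.88% of all genes did. Fgfr3, a receptor that limits chondrocyte growth, went from 192 ± 11.6 to 355 ± 27.02 CPM at 24 h (0.89 ± 0.07, adjusted p = 2.4e-05) and from 222 ± 22.5 to 430 ± 28.6 at 48 h (0.94 ± 0.07, adjusted p = 5e-06). No treated library overlapped the vehicle libraries at either time. Fgfr2 rose by 0.37 ± 0.06 and 0.32 ± 0.05 (adjusted p = 0.00247 and 0.00142) and Gdf5, a BMP ligand of joints and early cartilage, by 0.53 ± 0.11 and 0.70 ± 0.10 (0.0153 and 0.000307). Bmpr1b, through which GDF5 signals, was at 0.31 ± 0.08 and 0.25 ± 0.07 (0.0453 and 0.0246), and its 24 h call was lost without any library but 50 µM library 1 (adjusted p up to 0.128) and its 48 h call without 50 µM library 4 or 5 (up to 0.0629). Both calls of Bmpr1b were lost in the fit of 45 libraries (adjusted p = 0.0606 and 0.108). At 3 h Fgfr3 rose by 0.50 ± 0.07 (adjusted p = 0.00145; 0.889% of genes were higher) and Nog, a BMP antagonist, was at -0.52 ± 0.12 (0.0439; 0.518% were lower), a call lost without any library but vehicle library 1 or 3 (adjusted p up to 0.107). The effect of 50 µM on Nog was higher at 48 than at 3 h by 0.77 ± 0.16 (adjusted p = 0.00364; 0.348% of genes were higher).

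Genes of condensing mesenchyme, where Sox9 is first on, included 4 of 15 that rose and 8 that fell in vehicle from 3 to 48 h. Of the genes of the step to hypertrophy 12 of 12 rose over that span, where 23.9% of all genes rose and 22.9% fell. With 50 µM at 48 h, 3 of the 15 condensation genes rose, where 3.88% of all genes did. They were the transcription factor genes Foxc1 (0.42 ± 0.06, adjusted p = 0.00021), Msx2 (0.91 ± 0.17, 0.003) and Dlx5 (0.38 ± 0.07, 0.00353). Of 12 genes of the step to hypertrophy, which Sox9 holds back in mouse cartilage, 1 rose and 2 fell at 24 h (1.37% and 2.10% of all genes), and 2 rose and 2 fell at 48 h (3.88% and 5.30%). At 24 h Col10a1, the collagen of hypertrophic cartilage, fell by 1.76 ± 0.29 on the log2 scale (adjusted p = 0.00375) and Ibsp, a bone matrix protein, by 1.73 ± 0.21 (0.000551). The gene that rose, Ihh (0.46 ± 0.12, 0.0477), lost its call without any library but 50 µM library 3 and vehicle library 1 (up to 0.126). At 48 h Ihh, a signal of prehypertrophic cells, rose by 0.85 ± 0.08 on the log2 scale (adjusted p = 2.73e-05) and Mef2c, a factor that drives hypertrophy, fell by 0.64 ± 0.12 on the log2 scale (adjusted p = 0.00267). Of the muscle markers 10 of 12 and of the macrophage markers 5 of 7 were lower there as well, and their part in the fall of Mef2c was not tested. With 1 library left out, Pth1r ran from 0.22 to 0.33 and Runx3 from -0.50 to -0.36, and their calls were lost in 4 and 6 of 10 such fits. Runx2, the main factor of that step, was at -0.01 ± 0.08 (adjusted p = 0.956). Neither Col10a1 nor Ibsp was called at 48 h, where Col10a1 read 143 ± 94.8 CPM with 50 µM and 165 ± 62.5 in vehicle. At 10 µM none of the genes in the 6 lists of targets, relatives, partners, upstream genes, condensation and hypertrophy was called with edgeR, with 12, 15 and 14 at an unadjusted p below 0.05 at 3, 24 and 48 h and 0, 1 and 2 called by DESeq2.

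Close to the members in the genome, 1 gene fell with 50 µM. BC006965, a processed transcript without a protein, starts 248 bases from Sox9 on the opposite strand (chromosome 11, 112663927 to 112781976). In vehicle at 24 h it read 10.9, 12.9, 14.1, 12.8 and 13.7 CPM, and with 50 µM 10.2, 7.78, 9.33, 6.43 and 7.26, all below vehicle (5.04% of genes did not overlap). It fell by 0.65 ± 0.14 on the log2 scale (adjusted p = 0.0181). At 48 h it went from 9.30 ± 1.61 to 5.98 ± 1.22 CPM, a fall of 0.65 ± 0.17 (adjusted p = 0.0255), with 1 treated library above the lowest of vehicle. At 3 h the values were 9.54 ± 1.86 and 6.03 ± 1.70 (log2 difference -0.66 ± 0.20, adjusted p = 0.128), and with 10 µM it was not called at any time (-0.38, -0.29 and -0.09). Leaving out 50 µM library 2, 4 or 5 or vehicle library 3 or 5 ended the 24 h call (adjusted p up to 0.0587), and 50 µM library 3 or 5 or vehicle library 1, 2 or 4 the 48 h call (up to 0.067). The sources used here do not state whether reads were counted by strand, and its exons do not overlap those of Sox9.

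**Figure D5:**
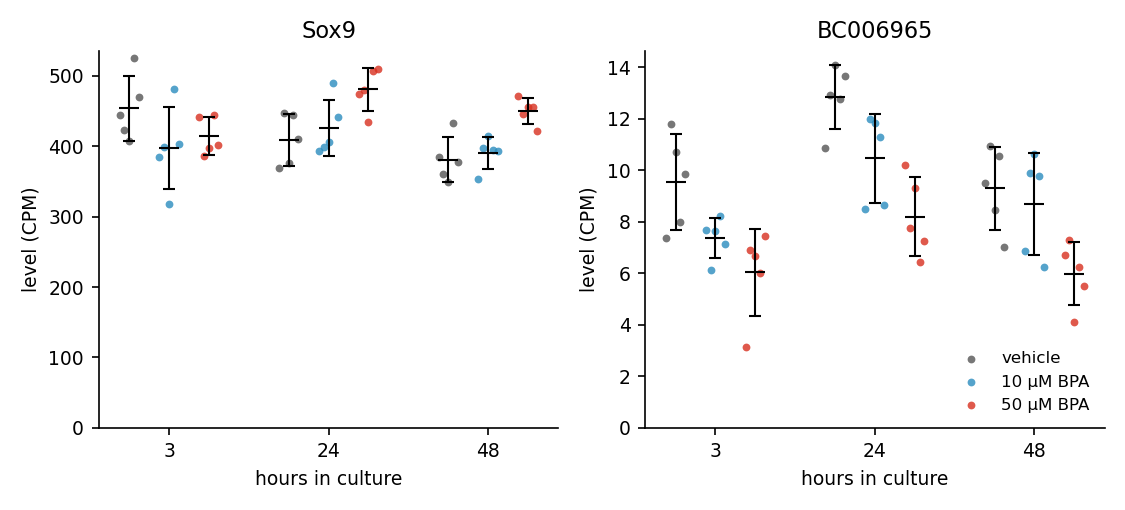
Levels in CPM of Sox9 (left) and of its upstream neighbour BC006965 (right) against hours in culture, with 1 point per library, a short bar for the mean and error bars of 1 SD (n = 5), coloured by dose. At 24 and 48 h the 50 µM libraries lie toward the top for Sox9 and toward the bottom for BC006965.

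Transcripts that overlap Sox5 and Sox6 had few reads. The 7 genes inside Sox5 and the 2 inside Sox6 had mean counts of at most 7.56 per library (Gm44068), and 1 of them, Sox5os1, shares 1330 exon bases with Sox5 at a mean count of 1.04. Bcat1, which encodes an enzyme of branched-chain amino acid breakdown and is the protein-coding neighbour of Sox5 at 211858 bases, was at 0.33 ± 0.10 with 50 µM at 48 h (adjusted p = 0.0478), a call lost without 50 µM library 3, 4 or 5 or vehicle library 1, 2 or 3 (up to 0.126). The neighbour of Sox6 at 601 bases, 1110004F10Rik, was at -0.06 ± 0.06 there (adjusted p = 0.569).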

How the data were processed

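The 45 libraries were poly-A RNA-seq; the submitters' processing notes name CASAVA 1.8, STAR 2.5, HTSeq 0.6.1, DESeq2 2 and build mm10, without roles. The deposited tables of the authors hold raw counts per gene, used for all tests, FPKM, used for levels per length, size-factor normalised signal, not used, and, per the file headers, log2 fold changes with p-values of the authors' own comparisons. Groups followed the sample titles; the 50 µM libraries of 3 h carry 24 h in another label. Genes passing edgeR's filter (minimum count 10, total 15) were fitted with the quasi-likelihood test of edgeR 4.0.16 (TMM scaling) in R 4.3.3, per pair of groups, or over all 45 libraries for doses against each other and for interactions. The fit was tested on simulated data. Ratios within libraries used an exact permutation test. The main tests did not pair libraries by replicate number, which entered only as a block in alternative fits of each comparison. At 48 h with 50 µM, same-numbered deviations correlated at 0.11 to 0.21 in 5 of 5 pairs. The members and the gene lists were chosen with earlier results of these data known. Named list genes are up to 4 called members of smallest p per list and comparison; genes named beyond that were chosen after their values were seen. Alternatives were DESeq2 1.42.0, other scalings and filters, the replicate block, an epidermal covariate and each library left out.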

Additional observations from a re-analysis of the deposited data

Results flagged for a closer look

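Of 63 groups of 5 values examined, 3 held a library whose gap to the next exceeded 0.71 of the group's range, and chance gives about 1 in 20 groups. Sox6 read 48.6 CPM in library 3 of 10 µM at 3 h, where the next lowest read 69.2 (gap over range 0.774). Sox6 read 130 CPM in vehicle library 4 of 48 h, where the next highest read 109 (0.737). The log2 ratio of Sox9 to Sox5 was 2.29 in library 1 of 50 µM at 24 h, where the next highest was 2.05 (0.727).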

How the results depend on the processing

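Over scalings, filters, DESeq2, the other fits, the covariate and the blocks, 296 fold changes of the members kept direction and side of the threshold, 14 gained a call, 1 lost it and 1 changed sign; for other named genes 767 kept theirs and 31 lost it. With DESeq2, Sox5 at 3 h (-0.32), Sox9 at 24 h (0.23), and the interactions of 48 against 3 h for Sox5 (0.46) and Sox9 (0.37) gained a call, and genes called became 594 (3 h) and 1008 (24 h) at 50 µM, 17, 17 and 53 at 10 µM, 186 (3 h) and 259 (24 h) between doses, and 214 (24 against 3 h) and 4 (48 against 24 h) for interactions. Fitting all 45 libraries left Sox6 at 48 h uncalled (0.27) and called 463 and 885 genes at 50 µM (3 and 24 h) and 12, 4 and 14 at 10 µM. Fitting only the groups compared called Sox9 between doses at 48 h (0.20) and in the interaction of 48 against 3 h (0.37), with Sox5 (0.46), gave Sox9 -0.00 for 48 against 24 h and called 21 genes between doses at 3 h. With the epidermal covariate Sox6 (0.37) and Sox9 (0.26) were called at 24 h, and 9 and 23 genes at 10 µM (24 and 48 h). No filter called 3 and 25 genes there and 1 for the interaction of 48 against 24 h, and upper-quartile scaling 0 at 48 h. The causes were not tested.

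The labels do not say what the replicate numbers mark. Outside 50 µM at 48 h, correlations of same-numbered deviations ran from -0.08 to 0.38. Against vehicle at 24 h, 5 of 5 libraries with 10 µM and 4 of 5 with 50 µM correlated best with their own number. In the remaining comparisons outside 50 µM at 48 h, 2 or 3 of 5 did. The replicate block moved genes called to 1180 (24 h) and 2598 (48 h) at 50 µM, 95 (24 h) and 37 (48 h) at 10 µM and 183 for the interaction of 24 against 3 h, and the block on library code numbers gave 58 at 10 µM and 48 h. It called Sox6 (0.31) and Sox9 (0.23) at 24 h, Sox9 in the interaction of 24 against 3 h (0.36), and Sox5 (0.46) and Sox9 (0.38) in that of 48 against 3 h. For the 6 vehicle ratios (-0.36, -0.50, -0.73, -0.77, -0.37 and -0.27) 5 pairs allow no exact sign-flip p below 0.0625.

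Leaving out each library gave these ranges. Genes called numbered 141 to 289 (3 h) and 345 to 659 (24 h) at 50 µM, 0 to 5 (3 h) and 0 to 1 (48 h) at 10 µM, 73 to 138, 65 to 125 and 386 to 577 between doses at 3, 24 and 48 h, and 82 to 172 (24 against 3 h) and 0 to 2 (48 against 24 h) for interactions. With 50 µM, Sox5 at 3 h ran from -0.38 to -0.27, Sox9 from 0.20 to 0.27 at 24 h and from 0.20 to 0.28 at 48 h, and Sox6 from 0.23 to 0.32 at 48 h. In vehicle, Sox5 ran from 0.16 to 0.27 (24 against 3 h), from 0.20 to 0.31 (48 against 3 h) and from -0.03 to 0.09 (48 against 24 h). The interactions of 48 against 3 h ran from 0.41 to 0.52 (Sox5) and 0.32 to 0.43 (Sox9), and those of 48 against 24 h from -0.05 to 0.08 (Sox5), -0.09 to 0.06 (Sox6) and -0.02 to 0.07 (Sox9). Sign also turned for Sox6 at 10 µM and 24 h (-0.02 to 0.14), Sox5 at 10 µM and 48 h (-0.00 to 0.11), and Sox6 (-0.04 to 0.12) and Sox9 (-0.01 to 0.14) between doses at 3 h. Among ratios in vehicle, Sox9 per Sox5 ran from -0.41 to -0.31 (24 against 3 h) and -0.17 to -0.12 (48 against 24 h), Sox5 per Sox6 from -0.41 to -0.34 (24 against 3 h) and Sox9 per Sox6 from -0.07 to 0.02 (48 against 24 h). With BPA, Sox9 per Sox5 ran from -0.05 to 0.03 (10 µM, 48 h) and Sox9 per Sox6 from -0.07 to 0.08 and -0.06 to 0.02 (50 µM, 3 and 48 h) and from -0.04 to 0.06 and -0.06 to 0.04 (10 µM, 3 and 24 h).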
